A study of Arabidopsis thaliana with 8 samples.

Results

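A set of 158 genes of 32548 in the expression table stood at a low level in all 3 SAGA mutants of Arabidopsis that were sequenced. A gene was taken when L, the log2 of (mutant mean + 1) over (Col-0 mean + 1), was -1 or less in each mutant and its Col-0 mean was at least 200 normalised counts. An L of -1 stands for a mutant level at about 1 part in 2 of Col-0. There were 166 such genes, and 8 of them (TGG2, COR15A, COR15B, KIN2, CYP707A2, DELTA-TIP, AGL20 and MBP1) were left out by name, as were BHLH100 and LTI78, which did not meet the thresholds. The genes were chosen by the differences between each mutant and Col-0, so these values are given as a description with no test. Tests are given for the differences between mutants. The rule did not compare mutants, but it capped the level of each, so these tests are not independent of it.

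RNA was sequenced from whole seedlings aged 12 days, grown on Murashige and Skoog plates at 22 °C with 16 h of light and 8 h of dark. The groups were the double mutant scs1-/-scs2a-/- (scs1-scs2a below), ada2b-/- (ada2b), hag1-/- (hag1) and wild type Col-0, with 2 libraries each. The alleles, the number of lines behind a genotype and whether its libraries came from separate plantings are not stated in the labels, so the p-values measure the spread between these libraries, which may be technical. Libraries held 20570967 to 22344725 normalised counts.

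SAGA is a coactivator complex that transcription factors bring to promoters, where its acetyltransferase module adds acetyl groups to histone H3 and a further module removes ubiquitin from histone H2B. HAG1, also called GCN5, is the acetyltransferase, ADA2B is the adaptor that binds it and raises its activity on nucleosomes, and SCS1 and SCS2A are subunits described in plants. In Arabidopsis, GCN5 and ADA2B are known for roles in cold and light responses, in leaf and root growth and in flowering. HAG1 RNA stood at 132 ± 1.35 normalised counts in hag1, against 312 ± 22.8 in Col-0 (SD, n = 2 each). ADA2B RNA in ada2b was 590 ± 33 against 710 ± 2.64 in Col-0 (SD, n = 2 each), so it is a weak check of that label, and the transcripts of SCS1 and SCS2A were not used here.

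Of the 158 genes, 153 were annotated as protein-coding, 4 as lncRNA and 1 as ncRNA, and 70 had a symbol in the reference table. Chromosomes 1 to 5 held 48, 33, 23, 27 and 27 of them. The median transcript length was 1692 bases, against 1842 bases over the 13438 genes with a Col-0 mean of at least 200. The median number of exons was 4, against 5 over those genes. Genes with 1 exon made up 22.2% of the set (35 genes), against 11.9% of the 13438.

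The promoters that follow show letters of stress- and clock-linked motifs in 6 of the genes, chosen because they are the best-known members with those motifs. Each is the 250 bases before the annotated start in the RefSeq TAIR10.1 assembly, written along the gene's strand. In the first 3, capitals mark the core of the abscisic acid response element, ACGTG, or its reverse complement. RAB18 encodes a dehydrin, RD20 a caleosin of lipid droplets and COR413IM1 a cold-regulated protein of the inner chloroplast envelope.
RAB18 promoter (chr5:26519448-26519697, reverse strand): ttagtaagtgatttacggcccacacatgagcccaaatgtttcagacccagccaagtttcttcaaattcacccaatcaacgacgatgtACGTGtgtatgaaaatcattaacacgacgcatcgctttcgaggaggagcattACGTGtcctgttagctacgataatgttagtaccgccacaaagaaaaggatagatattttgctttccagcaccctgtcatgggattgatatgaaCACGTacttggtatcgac
RD20 promoter (chr2:14146556-14146805, reverse strand): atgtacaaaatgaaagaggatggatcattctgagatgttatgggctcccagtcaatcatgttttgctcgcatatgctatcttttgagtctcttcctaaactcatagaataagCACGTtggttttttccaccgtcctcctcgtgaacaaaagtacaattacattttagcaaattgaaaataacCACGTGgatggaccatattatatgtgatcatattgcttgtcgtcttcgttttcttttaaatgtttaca
COR413IM1 promoter (chr1:10289667-10289916, reverse strand): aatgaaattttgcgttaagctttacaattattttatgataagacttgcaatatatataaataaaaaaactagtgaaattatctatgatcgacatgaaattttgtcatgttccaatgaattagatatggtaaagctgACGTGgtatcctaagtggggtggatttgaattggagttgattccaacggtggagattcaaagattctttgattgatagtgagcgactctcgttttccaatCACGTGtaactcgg
Each of these windows held 3 matches, and in RD20 and COR413IM1 a pair of them overlap as CACGTG, the G-box. The first letter of the match nearest the start lay 18 bases before it in RAB18, 67 in RD20 and 13 in COR413IM1.

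Capitals in the next 3 promoters mark the core of the evening element, AATATCT, or its reverse complement, a motif known from genes that the clock drives towards evening. CCL is a clock-controlled transcript, FKF1 a blue-light F-box protein of the photoperiod pathway, and PRR7 a pseudo-response regulator that represses morning clock genes.
CCL promoter (chr3:9827432-9827681, forward strand): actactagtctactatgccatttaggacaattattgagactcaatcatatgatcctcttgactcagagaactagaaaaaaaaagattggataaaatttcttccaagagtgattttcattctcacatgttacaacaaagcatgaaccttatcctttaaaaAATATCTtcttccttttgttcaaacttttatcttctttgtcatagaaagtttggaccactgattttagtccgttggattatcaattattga
FKF1 promoter (chr1:25508389-25508638, forward strand): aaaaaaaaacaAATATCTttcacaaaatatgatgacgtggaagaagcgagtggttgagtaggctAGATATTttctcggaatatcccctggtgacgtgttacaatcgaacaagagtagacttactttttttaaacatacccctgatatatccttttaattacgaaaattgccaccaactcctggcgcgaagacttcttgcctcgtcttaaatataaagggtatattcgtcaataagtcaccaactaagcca
PRR7 promoter (chr5:642031-642280, reverse strand): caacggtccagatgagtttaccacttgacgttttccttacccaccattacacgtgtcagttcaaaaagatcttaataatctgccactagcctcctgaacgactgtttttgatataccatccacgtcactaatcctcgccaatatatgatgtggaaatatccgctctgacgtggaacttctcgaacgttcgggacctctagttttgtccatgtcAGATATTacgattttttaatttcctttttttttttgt
CCL and PRR7 held 1 match each and FKF1 held 2. The match nearest the start began 91 bases before it in CCL, 186 in FKF1 and 37 in PRR7.

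Over the set, 9 short motifs were counted on both strands in windows from 250 bases before to 50 bases after the start. The ACGTG core was in 57 of 158 windows (36.1%), against 27.2% of 13437 genes with a Col-0 mean of at least 200 and 25.8% of all 32546 windows. AATATCT was in 30 (19.0%), against 11.8% and 11.2%. The G-box, which contains the ACGTG core, was in 10.1%, against 8.89% and 7.11%. CCGAC, the core bound by the CBF cold regulators, was in 12.0%, against 16.5% and 14.9%. The TATA box TATAAA was in 58.2%, against 50.3% and 50.6%. Shares for the I-box core GATAAG were 17.1%, against 15.6% and 14.8%. The W-box core TTGAC gave 46.2%, against 50.1% and 49.9%. The GCC box GCCGCC gave 4.43%, against 2.53% and 2.63%, and the telo box core AAACCCT 6.33%, against 9.16% and 9.98%. Among the 11 genes grouped as cold, dehydration and abscisic acid genes, 7 held ACGTG and 5 held AATATCT, and of the 4 clock and photoperiod genes 3 held each. These groups were made after the members were known. Members with ACGTG had median L values of -1.45 in scs1-scs2a, -2.76 in ada2b and -2.08 in hag1, against -1.32, -2.49 and -1.66 in the same order for members without it. For AATATCT the medians were -1.23, -2.22 and -1.80 with it, against -1.37, -2.57 and -1.72 without it. The median L of members with AATATCT was thus higher in scs1-scs2a and ada2b and lower in hag1. The rule was set on L, so these splits are only described, and a link between motif and L was not tested. A match of letters is not a bound site.

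**Figure D1:**
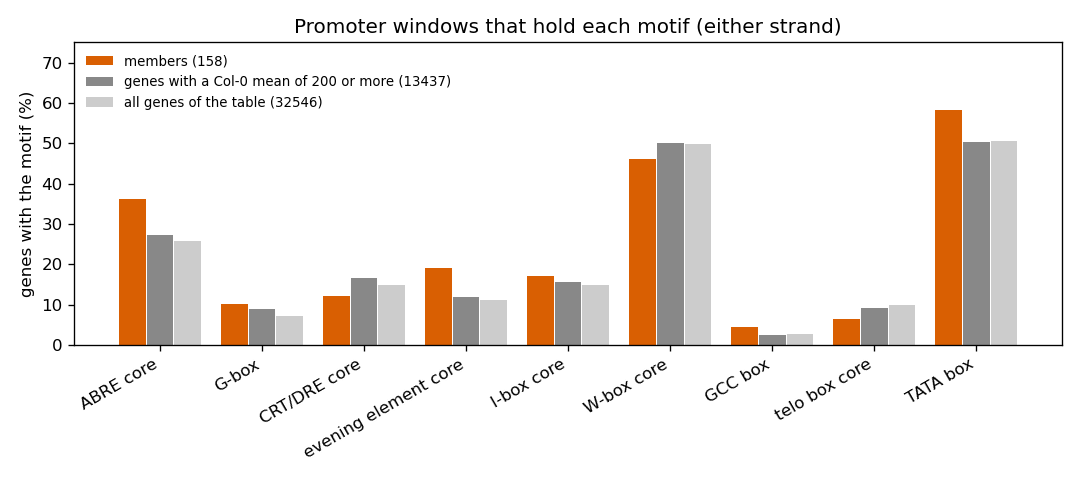
Percent of promoter windows (250 bases before to 50 after the start) that hold each motif on either strand, for the 158 genes, for genes with a Col-0 mean of 200 or more, and for all genes of the table. The ACGTG core (36.1% against 27.2%), the TATA box (58.2% against 50.3%) and the evening element core (19.0% against 11.8%) stand furthest above the genes with a Col-0 mean of 200 or more, while the CCGAC core, the W-box core and the telo box core are less common in the set.

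The depth of the reduction differed between the mutants. Median L over the 158 genes was -1.35 in scs1-scs2a, -2.55 in ada2b and -1.77 in hag1, where the 13438 genes with a Col-0 mean of at least 200 had medians of 0.00292, 0.0951 and 0.0119 in that order. L was -2 or less for 29 genes in scs1-scs2a, 117 in ada2b and 62 in hag1. It was -3 or less for 3, 52 and 23 genes in that order. The lowest mutant mean was in ada2b for 132 genes, in hag1 for 25 and in scs1-scs2a for 1. In 97 genes the means ran from ada2b, the lowest, through hag1 to scs1-scs2a. An L of -1 or less was less common in scs1-scs2a, where 249 of the 13438 genes (1.85%) had it, than in ada2b with 949 (7.06%) and hag1 with 548 (4.08%). The scs1-scs2a threshold therefore limited membership most, and its members lie nearest to it. The 166 genes below it in all 3 mutants were 1.24% of the 13438. All 158 genes had every one of the 6 mutant libraries below both Col-0 libraries, as had 20.2% of the 13438 genes, a separation that the rule itself favours.

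**Figure D2:**
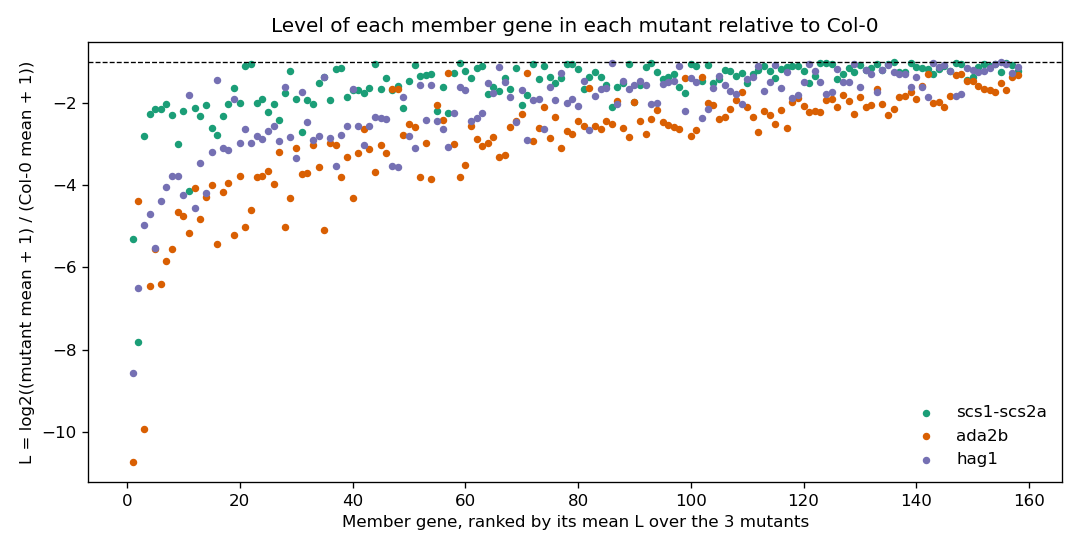
L of each of the 158 genes (vertical axis, log2) in scs1-scs2a, ada2b and hag1, with genes ranked along the horizontal axis by their mean L and the rule's limit of -1 dashed. The ada2b points lie lowest for 132 genes and the scs1-scs2a points cluster just below the limit, with a median of -1.35.

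Together the 158 genes made up 0.377 and 0.323% of the scs1-scs2a libraries, 0.173 and 0.168% of the ada2b libraries and 0.250 and 0.284% of the hag1 libraries, against 0.845 and 0.863% of the Col-0 libraries. The spread between libraries of a genotype, as a median coefficient of variation, was 11.9% in scs1-scs2a, 12.9% in ada2b and 14% in hag1, against 6.29% in Col-0. At the limit of the rule, AT2G40020 was kept with an L of -1.0006 in scs1-scs2a, AT5G44680 with -1.003 in hag1 and TCP4 with -1.005 in scs1-scs2a. Just outside were AT3G47295 at -0.9999 and NUDT8 at -0.998, both in scs1-scs2a, and PHT4;1 at -0.993 in ada2b. On the Col-0 limit, RGL2 (201), AT2G39920 (206) and AT1G48330 (207 normalised counts) were inside, and AT3G10185 (198), AT3G18950 (196) and TOE3 (194) were outside.

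The comparisons between mutants ask how far the loss of each subunit lowers the same genes. The rule capped every mutant's level at the same limit, and the same mutant libraries enter these tests, so the counts are read beside those over all genes and nothing is called particular to the set. Members lie nearest the limit in scs1-scs2a, so the rule itself favours higher calls there. In scs1-scs2a against ada2b, 133 of 158 genes were higher, 0 lower and 25 not called (limma, adjusted p below 0.05), 84.2% called against 29.7% of all 25459 genes and 39% of those with a Col-0 mean of at least 200. Higher calls made up 14.8% and lower calls 14.9% of all genes. At an unadjusted p below 0.05, 142 were higher and 1 lower. The median log2 difference was 1.08, against -0.03 over all genes. The libraries of the 2 genotypes did not overlap for 144 members (91.1%), against 66.5% of all genes and 74.9% of those with a Col-0 mean of at least 200.

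In scs1-scs2a against hag1, 66 genes were higher, 4 lower and 88 not called, 44.3% called against 30.1% of all genes and 39.3% of those with a Col-0 mean of at least 200, with a median of 0.47. Higher calls made up 15.2% and lower calls 14.9% of all genes. The higher count becomes 35 without the first scs1-scs2a library, and the lower count becomes 1 without the second. The share of members whose libraries do not overlap was 71.5% (113 genes), against 65.9% of all genes and near the 73% of those with a Col-0 mean of at least 200. In ada2b against hag1, 9 were higher, 95 lower and 54 not called, 65.8% called against 42.8% and 52.5%, with a median of -0.72. Lower calls made up 21.2% and higher calls 21.6% of all genes there. Libraries did not overlap for 131 members (82.9%), against 71% of all genes and 78.1% of those with a Col-0 mean of at least 200.

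Tissue markers and other gene lists were compared with Col-0 in the same model, and these 3 comparisons share the 2 Col-0 libraries. Over all tested genes, limma called 7.86% higher and 12.1% lower in scs1-scs2a, 24.7% and 23.4% in ada2b, and 21.3% and 23% in hag1. In bulk seedlings, less RNA per cell and fewer cells of a type cannot be told apart. The summed level of 8 guard cell and stomatal lineage markers was 1249 and 1165 in scs1-scs2a, 689 and 793 in ada2b and 1010 and 1074 in hag1, against 2198 and 2106 normalised counts in Col-0, with 3, 7 and 7 of the 8 lower by limma. For 21 photosystem and rubisco small subunit genes the sums were 959407 and 863123, 960778 and 941830, and 775291 and 820844 in scs1-scs2a, ada2b and hag1, against 1227430 and 1177850 in Col-0, with 16, 18 and 19 genes lower, the first of which becomes 7 without the second scs1-scs2a library. The 13 root markers summed to 62386 and 61762 in scs1-scs2a, 56099 and 53238 in ada2b and 89741 and 69261 in hag1, against 51139 and 49745 in Col-0, but most of each sum was PYK10, a beta-glucosidase abundant in roots. PYK10 alone had 55109 and 54441 normalised counts in scs1-scs2a, 50809 and 48402 in ada2b and 82448 and 63579 in hag1, against 43806 and 42259.9 in Col-0. The other 12 summed to 7278 and 7320.3 in scs1-scs2a, 5289 and 4836 in ada2b and 7293 and 5682 in hag1, against 7333 and 7485 in Col-0. In scs1-scs2a 3 of the 13 were higher and 4 lower, in ada2b 1 and 7, and in hag1 1 and 3. Without 1 library the higher root marker count ranged from 1 to 5 in scs1-scs2a (1 without either scs1-scs2a library or the first Col-0 library, 5 without either hag1 library), from 0 to 3 in ada2b (0 without the first ada2b library, either scs1-scs2a library or either Col-0 library, 2 without the first hag1 library and 3 without the second), and became 4 in hag1 without the second hag1 library, and the lower count in scs1-scs2a became 2 without its first library. Leaf and guard cell marker sums were thus below Col-0 in every mutant library. Root marker sums were above Col-0 in every mutant library with PYK10. Without it they were below Col-0 in both ada2b libraries and the second hag1 library. In scs1-scs2a and the first hag1 library they were only just below Col-0. Totals of all genes were 20787704 and 20570967 in scs1-scs2a, against 22344725 and 21970082 in Col-0, so no direction is read for scs1-scs2a or that hag1 library. PYK10 was singled out after its values were seen. No marker of the root, guard cell and leaf lists was at 0 in both libraries of a genotype. The part of these markers in the levels of the 158 genes was not tested.

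Among the lists with no member, 20 light-harvesting antenna genes gave 16 lower calls in scs1-scs2a, 18 in ada2b and 12 in hag1, with 1 higher, in hag1. The first of these counts became 7 without the second scs1-scs2a library, and the higher count in hag1 ranged from 0 (without either hag1 library or the second Col-0 library) to 3 (without the first Col-0 library), with 2 without either scs1-scs2a library. The 13 floral transition genes include AGL20, which met the thresholds and was left out by name, so the rule set its direction. Of the 13, 4 were lower in scs1-scs2a, 4 higher and 6 lower in ada2b, and 1 higher and 5 lower in hag1. In scs1-scs2a the lower count became 2 without either of its libraries or the second Col-0 library, and 1 was higher without either hag1 library. The higher count in ada2b became 1 without its first library and 2 without either Col-0 library. Of 12 wax and lipid transfer genes, 3 were higher and 1 lower in scs1-scs2a, 5 and 5 in ada2b, and 4 and 3 in hag1, and the higher count in scs1-scs2a became 1 without its second library.

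Stress-linked genes come first. Cold and drought raise abscisic acid and CBF factors, which switch on dehydrins, other protectants and the synthesis of compatible solutes. The 11 genes of this role had a median L of -1.66 in scs1-scs2a, -2.28 in ada2b and -2.18 in hag1. RAB18 (AT5G66400) had 302 and 136 normalised counts in scs1-scs2a, 291 and 173 in ada2b and 82.9 and 148 in hag1, against 448 and 754 in Col-0. The Col-0 libraries of RAB18 lay far apart, and its highest mutant library was still below the lower of them. RD20 (AT2G33380) had 43.3 and 19.8 normalised counts in scs1-scs2a, 12 and 6.78 in ada2b and 15.7 and 20.6 in hag1, against 239.6 and 279 in Col-0, which is 12.2% of the Col-0 mean in scs1-scs2a, 3.62% in ada2b and 7% in hag1. Both Col-0 libraries of RD20 were far above all 6 mutant libraries.

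GolS2 (AT1G56600), galactinol synthase of the raffinose pathway, had 138 and 51.7 normalised counts in scs1-scs2a, 15 and 2.85 in ada2b and 20.05 and 46.2 in hag1, against 441 and 489 in Col-0. Its libraries differed more than 2-fold within each mutant, but none came near Col-0. COR413IM1 (AT1G29395), whose promoter is printed above, had 1207 and 995 normalised counts in scs1-scs2a, 582 and 592 in ada2b and 652 and 1293 in hag1, against 3675 and 3286 in Col-0. The second hag1 library of COR413IM1 stood with the scs1-scs2a libraries and the first with ada2b. KIN1 (AT5G15960), a small cold-inducible protein, had 153 and 166 normalised counts in scs1-scs2a, 74.1 and 75.9 in ada2b and 118 and 144 in hag1, against 331 and 406 in Col-0. In KIN1 the ada2b libraries were the lowest and the hag1 and scs1-scs2a libraries close together.

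P5CS1 (AT2G39800), which makes the proline precursor, had 3105 and 2148 normalised counts in scs1-scs2a, 2709.8 and 2144 in ada2b and 2787 and 3123 in hag1, against 6563 and 6837 in Col-0. The mutant libraries of P5CS1 overlapped each other and none reached Col-0. AT4G30650, of the low temperature and salt responsive family, had 1439.8 and 1328 normalised counts in scs1-scs2a, 689.7 and 661 in ada2b and 1538 and 1641 in hag1, against 3452 and 3043 in Col-0, with ada2b the lowest. HIS1-3 (AT2G18050), a drought-inducible linker histone, had L values of -1.74 in scs1-scs2a, -1.38 in ada2b and -2.18 in hag1, and AT3G05640, a protein phosphatase 2C, -2.04 in scs1-scs2a, -2.26 in ada2b and -1.67 in hag1. In HIS1-3 hag1 was the lowest and in AT3G05640 ada2b. Among these 11 genes, 7 were higher and 4 not called in scs1-scs2a against ada2b by limma, and 6 were lower and 1 higher in ada2b than in hag1. Comparisons of scs1-scs2a with hag1 gave 2 higher and 9 not called. Over the 158 genes, 84.2% were higher in scs1-scs2a than in ada2b (14.8% of all genes tested). Lower calls in ada2b against hag1 made up 60.1% (21.2% of all genes), and higher calls in scs1-scs2a against hag1 41.8% (15.2%). Counts by role are given beside these shares and are not read as traits of a role. Genes with a Col-0 mean of at least 200, as all members have, were called more often in either direction than all genes tested. Their called shares were 39%, 52.5% and 39.3% in the order of these 3 comparisons, and this limit holds for the roles below too.

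Other genes of these pathways did not all follow. The 17 other tested cold response genes include 4 of the genes left out by name. Of these, COR15A, COR15B and KIN2 met the thresholds, so the rule set their direction, and LTI78 did not meet them. Of the 17, 9 were lower and 8 not called in scs1-scs2a against Col-0, 3 higher and 11 lower in ada2b, and 4 higher and 10 lower in hag1. Their median log2 differences were -0.57, -1.23 and -0.93 in that order, against medians within 0.0332 of 0 over all genes tested. Without 1 hag1 library, 2 of them were higher in scs1-scs2a, and without the first ada2b library 1 was. COR47 (AT1G20440), a dehydrin, had 4545 and 5073 normalised counts in scs1-scs2a, 2729 and 2677 in ada2b and 3614 and 3719 in hag1, against 7249 and 6689.9 in Col-0. The log2 differences of COR47 from Col-0 were -0.54 ± 0.07 in scs1-scs2a (adjusted p = 0.0016), -1.36 ± 0.07 in ada2b (adjusted p = 3.23e-06) and -0.93 ± 0.07 in hag1 (adjusted p = 2.5e-05) by limma. ERD10 (AT1G20450), another dehydrin, had 2537 and 2783 normalised counts in scs1-scs2a, 1332 and 1324 in ada2b and 1781 and 2011 in hag1, against 3739 and 3421 in Col-0. In COR47 and ERD10 all mutant libraries were below Col-0, with ada2b the lowest. COR15B (AT2G42530), a chloroplast protectant left out by name, had 693 and 411 normalised counts in scs1-scs2a, 1012 and 1189.5 in ada2b and 226 and 254 in hag1, against 2719 and 2591 in Col-0. STZ (AT1G27730), also of this list, went the other way. STZ had 237 and 368 normalised counts in scs1-scs2a, 552 and 1029 in ada2b and 376 and 939 in hag1. Its Col-0 libraries had 91.1 and 151. RHL41 (AT5G59820) was likewise above Col-0 in every mutant library.

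The abscisic acid list was mixed. The 23 other tested genes include CYP707A2, which met the thresholds and was left out by name. Of the 23, 4 were higher and 9 lower in scs1-scs2a, 8 higher and 12 lower in ada2b, and 8 higher and 9 lower in hag1, each against Col-0. The lower count in scs1-scs2a became 2 without its second library, 5 without the first Col-0 library and 3 without the second. PYL5 (AT5G05440), an abscisic acid receptor, had 699.8 and 823 normalised counts in scs1-scs2a, 1361 and 1444 in ada2b and 2026 and 1846 in hag1, against 314 and 357 in Col-0. Every mutant library of PYL5 was above Col-0, with log2 differences of 1.18 ± 0.10 in scs1-scs2a (adjusted p = 0.000418), 2.06 ± 0.10 in ada2b (adjusted p = 2.87e-06) and 2.53 ± 0.10 in hag1 (adjusted p = 3.32e-06) by limma. PYR1 (AT4G17870), a further receptor, had 1233 and 1226 normalised counts in scs1-scs2a, 1229 and 1184 in ada2b and 2308 and 2080.1 in hag1, against 972 and 1064 in Col-0, the highest in hag1. CYP707A2 (AT2G29090), which breaks the hormone down and was left out by name, had 32.7 and 21.8 normalised counts in scs1-scs2a, 5 and 1.93 in ada2b and 7.36 and 12.8 in hag1, against 244 and 219.97 in Col-0.

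Jasmonate and glucosinolate genes serve defence against chewing insects, since jasmonate rises on wounding and glucosinolates are broken down to toxic products. The 7 genes of this role had a median L of -2.0 in scs1-scs2a, -4.28 in ada2b and -2.96 in hag1. VSP2 (AT5G24770), a vegetative storage protein and marker of jasmonate response, had 605 and 319.8 normalised counts in scs1-scs2a, 173 and 97 in ada2b and 136 and 341 in hag1, against 1468 and 2240.5 in Col-0. Libraries of VSP2 vary widely within each genotype, and the hag1 libraries overlapped those of both other mutants while Col-0 stood apart. CORI3 (AT4G23600), a jasmonate-inducible aminotransferase family protein, had 1782 and 1415 normalised counts in scs1-scs2a, 174 and 154 in ada2b and 1769 and 1743 in hag1, against 5095 and 5601 in Col-0. In CORI3 the ada2b libraries were far below the other 6, and the scs1-scs2a and hag1 libraries lay close together. HPL1 (AT4G15440), a hydroperoxide lyase of leaf volatile synthesis, had 139 and 76.6 normalised counts in scs1-scs2a, 19 and 25.3 in ada2b and 19.9 and 27.5 in hag1, against 416 and 483 in Col-0.

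FMO GS-OX2 (AT1G62540), which oxidises the side chain of aliphatic glucosinolates, had 152 and 97.7 normalised counts in scs1-scs2a, 5.01 and 10.7 in ada2b and 16.9 and 43.3 in hag1, against 445 and 567 in Col-0, or 24.7% of the Col-0 mean in scs1-scs2a, 1.56% in ada2b and 5.95% in hag1. Its groups of libraries did not overlap, with the order ada2b, hag1, scs1-scs2a, Col-0 from low to high. ESP (AT1G54040), the epithiospecifier protein that steers glucosinolate breakdown to nitriles, had 371 and 244 normalised counts in scs1-scs2a, 184 and 189 in ada2b and 377 and 473 in hag1, against 746 and 999.5 in Col-0. ESP had its lowest libraries in ada2b, and those of hag1 were the highest of the mutants. ARGAH2 (AT4G08870), a jasmonate-inducible arginase, had L values of -2.32 in scs1-scs2a, -4.82 in ada2b and -3.45 in hag1, and MES17 (AT3G10870), a methyl esterase, -1.21 in scs1-scs2a, -3.49 in ada2b and -1.68 in hag1. All 7 genes of this role were higher in scs1-scs2a than in ada2b by limma, 5 were lower in ada2b than in hag1, and 3 were higher in scs1-scs2a than in hag1. The shares over the 158 genes were 84.2%, 60.1% and 41.8% in that order, and over all genes tested 14.8%, 21.2% and 15.2%.

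The rest of the jasmonate list moved both ways. Of 16 other tested genes, 3 were higher and 3 lower in scs1-scs2a than in Col-0, 2 higher and 7 lower in ada2b, and 5 higher and 4 lower in hag1. The lower count became 1 in scs1-scs2a without its second library, and 1 in hag1 without its first library or the second Col-0 library. AOC1 (AT3G25760), an allene oxide cyclase of jasmonate synthesis, had 811 and 749 normalised counts in scs1-scs2a, 1104 and 1276 in ada2b and 1768 and 2178 in hag1, against 851 and 836 in Col-0. AOC1 was thus highest in hag1, with a log2 difference from Col-0 of 1.22 ± 0.10 (limma adjusted p = 5.72e-05). AOC4 (AT1G13280), its paralogue, had 812 and 721 normalised counts in scs1-scs2a, 509.5 and 544 in ada2b and 824 and 799.9 in hag1, against 899 and 907 in Col-0, the lowest in ada2b. CLH1 (AT1G19670), a jasmonate-inducible chlorophyllase, had 1201 and 998 normalised counts in scs1-scs2a, 633 and 711 in ada2b and 631 and 690.2 in hag1, against 1522 and 1901 in Col-0. All mutant libraries of CLH1 were below Col-0.

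Aliphatic glucosinolate synthesis genes other than FMO GS-OX2 were lower mostly in ada2b and hag1. Of 22 tested, 3 were higher and 6 lower in scs1-scs2a, 1 higher and 19 lower in ada2b, and 2 higher and 16 lower in hag1. In scs1-scs2a the higher count became 1 without either of its libraries or the second Col-0 library, and the lower count 3 without its second library or either Col-0 library. The higher count in hag1 became 1 without the first Col-0 library. MYB28 (AT5G61420), the main activator of the pathway, had 1746 and 1639 normalised counts in scs1-scs2a, 792 and 775 in ada2b and 1254 and 1372 in hag1, against 2653 and 2393 in Col-0. MAM1 (AT5G23010), of side chain elongation, had 6615 and 5753 normalised counts in scs1-scs2a, 2516 and 2558 in ada2b and 3562 and 3778 in hag1, against 8566 and 9432 in Col-0. CYP83A1 (AT4G13770), of core synthesis, had 7779 and 7440.2 normalised counts in scs1-scs2a, 2659 and 2532 in ada2b and 4469 and 4954 in hag1, against 7505 and 7743 in Col-0. The scs1-scs2a libraries of CYP83A1 overlapped those of Col-0, while ada2b and hag1 were below both. The 10 other breakdown genes include TGG2 and MBP1, which met the thresholds and were left out by name. Of the 10, 5 were lower and 5 not called in scs1-scs2a, 1 was higher and 5 lower in ada2b, and 3 were higher and 5 lower in hag1. Without either ada2b library or the second Col-0 library no higher call was left in ada2b, and without either hag1 library 1 was made in scs1-scs2a. TGG1 (AT5G26000), a myrosinase that releases the toxic products, had 31558 and 27898 normalised counts in scs1-scs2a, 20183 and 22289 in ada2b and 14093 and 15745 in hag1, against 60818 and 57018 in Col-0. Its fellow myrosinase TGG2 (AT5G25980), left out by name, had 5452 and 5039 normalised counts in scs1-scs2a, 1022 and 1066 in ada2b and 1613 and 1988 in hag1, against 18824 and 17011 in Col-0. MBP1 (AT1G52040), a myrosinase-binding protein also left out by name, had 33.5 and 31.4 normalised counts in scs1-scs2a, 11 and 7.76 in ada2b and 60.8 and 98.2 in hag1, against 177 and 339.9 in Col-0.

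**Figure D3:**
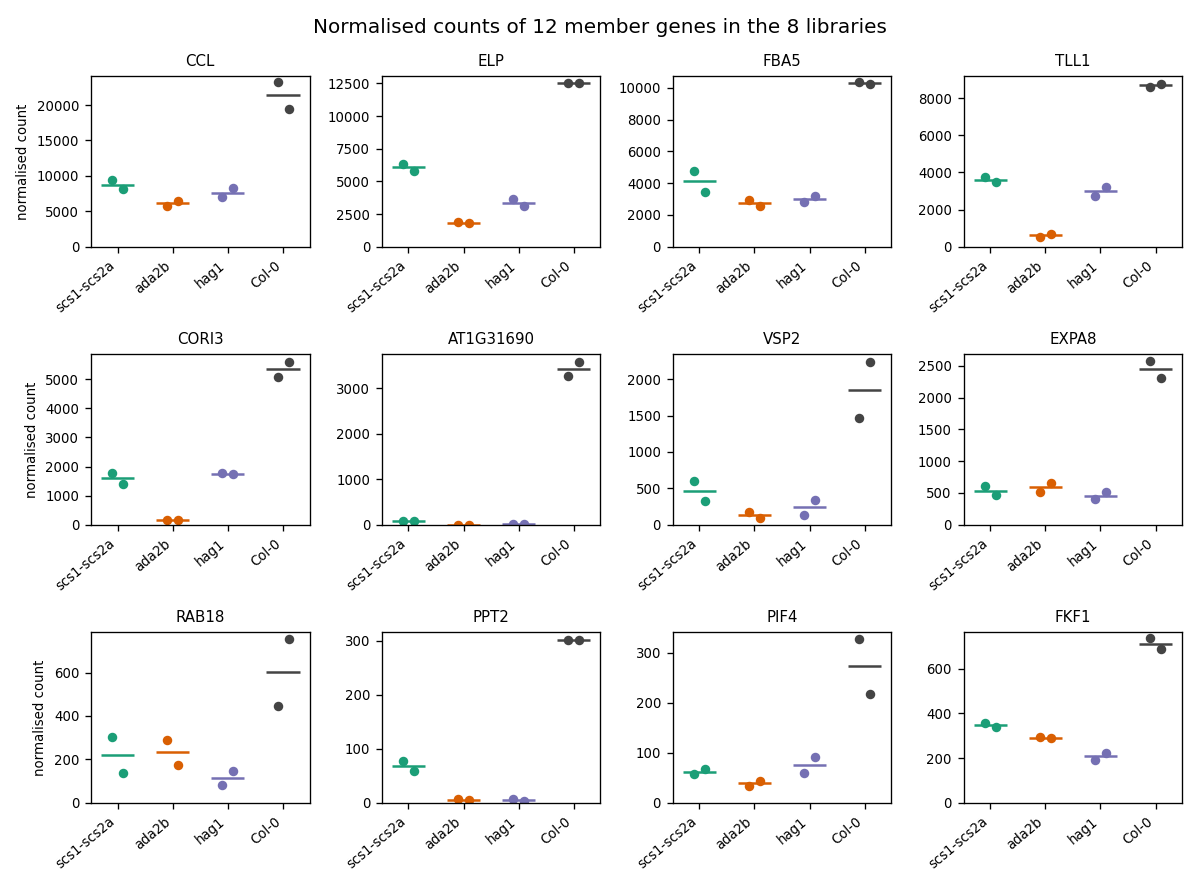
Normalised counts (vertical axis, from 0) of 12 of the genes in each library, with the mean of the 2 libraries of a genotype as a line and genotypes in the order scs1-scs2a, ada2b, hag1, Col-0. In every panel both Col-0 points are above all mutant points, while the order of the mutants changes, with ada2b far below for CORI3 and hag1 the lowest for FKF1.

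The wall and extracellular matrix formed the largest role, with 22 genes and median L values of -1.37 in scs1-scs2a, -2.55 in ada2b and -1.59 in hag1. Walls yield to growth when expansins loosen them and xyloglucan enzymes cut and rejoin their polymers, and pectin methylesterases and lyases change the pectin gel. ELP (AT1G12090), an extensin-like protein, had 6337 and 5813 normalised counts in scs1-scs2a, 1919.97 and 1779.9 in ada2b and 3629.5 and 3078 in hag1, against 12532 and 12501 in Col-0. In ELP the genotypes separated fully, with ada2b the lowest and scs1-scs2a the highest mutant. FLA8 (AT2G45470), a fasciclin-like arabinogalactan protein of the cell surface, had 3773 and 3315 normalised counts in scs1-scs2a, 1717 and 1596 in ada2b and 2121 and 2469 in hag1, against 7352 and 7668 in Col-0. FLA8 followed the same order without overlap.

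EXPA8 (AT2G40610), an expansin, had 615 and 460.4 normalised counts in scs1-scs2a, 522 and 661 in ada2b and 401 and 507 in hag1, against 2578 and 2308 in Col-0. The scs1-scs2a libraries of EXPA8 overlapped those of both other mutants, at 22% of the Col-0 mean in scs1-scs2a, 24.2% in ada2b and 18.6% in hag1. EXLB1 (AT4G17030), an expansin-like protein, had 103 and 95.2 normalised counts in scs1-scs2a, 20.02 and 11.6 in ada2b and 23 and 23.5 in hag1, against 441 and 464 in Col-0, with scs1-scs2a well above the other mutants. PME5 (AT5G47500), a pectin methylesterase, had 923 and 784 normalised counts in scs1-scs2a, 418 and 497 in ada2b and 901 and 1055 in hag1, against 2467 and 2877 in Col-0, and AT4G29020, a glycine-rich protein, had 1657 and 1176 normalised counts in scs1-scs2a, 1000.01 and 759.7 in ada2b and 1305 and 1538 in hag1, against 2489 and 3355 in Col-0. For both, the ada2b libraries were the lowest, and those of scs1-scs2a and hag1 overlapped. All 8 other tested expansins were lower in scs1-scs2a than in Col-0 by limma, 7 were lower and 1 higher in ada2b, and 7 were lower and 1 not called in hag1. EXPA11 (AT1G20190) had 472 and 445 normalised counts in scs1-scs2a, 237 and 251 in ada2b and 272 and 274 in hag1, against 785 and 823 in Col-0, and EXPA6 (AT2G28950) had 1986 and 1849.6 normalised counts in scs1-scs2a, 1415 and 1613 in ada2b and 1959 and 2131 in hag1, against 3193 and 3067 in Col-0. EXPA1 (AT1G69530) was the expansin higher in ada2b, with 4824 and 5180.2 normalised counts in scs1-scs2a, 13209.6 and 13803 in ada2b and 4364 and 4542 in hag1, against 6619.7 and 6617 in Col-0.

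CSLB03 (AT2G32530), a cellulose synthase-like protein, had 297 and 271 normalised counts in scs1-scs2a, 13 and 28.3 in ada2b and 323 and 249 in hag1, against 707 and 755 in Col-0. It was lower in ada2b than in hag1 at a log2 difference of -3.81 ± 0.29 (SE, limma adjusted p = 4.77e-05), while hag1 and scs1-scs2a libraries overlapped. A pair of class III peroxidases of the secretory pathway went the other way, with their highest mutant libraries in ada2b. The peroxidase AT1G49570 had 135 and 45 normalised counts in scs1-scs2a, 222 and 133 in ada2b and 47 and 53 in hag1, against 365 and 486 in Col-0, and was higher in ada2b than in hag1 at a log2 difference of 1.76 ± 0.45 (SE, limma adjusted p = 0.0131). That call is lost without the first ada2b library (adjusted p = 0.0901) or without the first hag1 library (adjusted p = 0.0654). The peroxidase AT5G19890 had 87.4 and 60.7 normalised counts in scs1-scs2a, 141 and 73.7 in ada2b and 44.6 and 23.4 in hag1, against 227 and 289.6 in Col-0. Across the 22 genes, 19 were higher and 3 not called in scs1-scs2a against ada2b, 8 higher and 14 not called in scs1-scs2a against hag1, and 2 higher and 16 lower in ada2b against hag1. Over the 158 genes, 84.2% and 41.8% were higher in the first 2 comparisons and 60.1% lower in the last. Over all genes tested these were 14.8%, 15.2% and 21.2%.

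Another group, of 10 genes, was put together by hand as secreted or vacuolar proteases. Where their products lie and whether they act as proteases was not checked. The 10 genes had median L values of -1.57 in scs1-scs2a, -3.21 in ada2b and -2.22 in hag1. They comprise 4 annotated as subtilases or subtilisin-like, 5 serine carboxypeptidases or their relatives and 1 peptidase of the M28 family. The subtilase AT4G21650 had 299 and 211 normalised counts in scs1-scs2a, 11 and 13.6 in ada2b and 39.9 and 66.8 in hag1, against 1091 and 1175 in Col-0, or 22.5% of the Col-0 mean in scs1-scs2a, 1.09% in ada2b and 4.71% in hag1. Its groups did not overlap and spanned a wide range between mutants. SCPL13 (AT2G22980), a serine carboxypeptidase-like protein, had 177 and 163 normalised counts in scs1-scs2a, 36 and 50.7 in ada2b and 35.4 and 26.4 in hag1, against 793 and 691 in Col-0, with ada2b and hag1 close together. All 10 genes of this group were higher in scs1-scs2a than in ada2b by limma, as were 84.2% of the 158 genes and 14.8% of all genes tested.

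AT1G31690, a copper amine oxidase of the family that oxidises polyamines, had the lowest mean L of the set. It had 89.1 and 83.8 normalised counts in scs1-scs2a, 2 and 0 in ada2b and 7.32 and 8.83 in hag1, against 3284 and 3579.6 in Col-0, or 2.52% of the Col-0 mean in scs1-scs2a, 0.0292% in ada2b and 0.235% in hag1. Both Col-0 libraries were far above those of scs1-scs2a, which were in turn above those of hag1 and ada2b. It was higher in scs1-scs2a than in ada2b at a log2 difference of 5.66 ± 0.43 (SE, limma adjusted p = 0.000112) and than in hag1 at a log2 difference of 3.27 ± 0.43 (SE, limma adjusted p = 0.00107). With a pseudocount of 0.1 the second call is lost (adjusted p = 0.0579). The second gene of the family, AT4G12290, had 674 and 643 normalised counts in scs1-scs2a, 218 and 141 in ada2b and 592 and 625 in hag1, against 1678 and 1748 in Col-0.

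Lipid, sterol and wax genes numbered 8, with median L values of -1.47 in scs1-scs2a, -2.93 in ada2b and -1.73 in hag1. TLL1 (AT1G45201), a lipase-like protein, had 3735 and 3466 normalised counts in scs1-scs2a, 545 and 664 in ada2b and 2749 and 3234 in hag1, against 8614 and 8787 in Col-0, with ada2b far below the other mutants. AT4G22755, a methylsterol monooxygenase of sterol synthesis, had 49 and 36.1 normalised counts in scs1-scs2a, 4.01 and 7.81 in ada2b and 102 and 118 in hag1, against 306 and 290.3 in Col-0. Its order was ada2b, scs1-scs2a, hag1 from low to high, without overlap. It was lower in ada2b than in hag1 at a log2 difference of -4.06 ± 0.28 (SE, limma adjusted p = 3.18e-05) and lower in scs1-scs2a than in hag1 at a log2 difference of -1.36 ± 0.28 (SE, limma adjusted p = 0.00819). Without the second scs1-scs2a library the adjusted p for scs1-scs2a against hag1 is 0.0601.

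Central carbon metabolism gave 5 genes, with median L values of -1.22 in scs1-scs2a, -2.07 in ada2b and -1.78 in hag1. FBA5 (AT4G26530), a fructose-bisphosphate aldolase, had 4766 and 3450.1 normalised counts in scs1-scs2a, 2922 and 2565 in ada2b and 2819 and 3159.7 in hag1, against 10352 and 10218 in Col-0. The highest mutant library of FBA5 was the first of scs1-scs2a, and the ada2b and hag1 libraries overlapped. PPT2 (AT3G01550), which carries phosphoenolpyruvate across the plastid envelope, had 76.8 and 57.9 normalised counts in scs1-scs2a, 6.01 and 4.86 in ada2b and 7.27 and 3.90 in hag1, against 301 and 301 in Col-0. Both ada2b and hag1 libraries of PPT2 are far below those of scs1-scs2a, and scs1-scs2a was higher than hag1 at a log2 difference of 3.41 ± 0.30 (SE, limma adjusted p = 0.000185). SUS4 (AT3G43190), a sucrose synthase, had L values of -1.16 in scs1-scs2a, -1.97 in ada2b and -1.12 in hag1, and AT4G33070, a pyruvate decarboxylase, -1.22 in scs1-scs2a, -2.07 in ada2b and -1.47 in hag1.

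Transporters and nutrient genes were fewer. TIP2;3 (AT5G47450), a water channel of the vacuole membrane, had 88 and 102 normalised counts in scs1-scs2a, 40.04 and 37 in ada2b and 41.6 and 34.3 in hag1, against 220.5 and 203 in Col-0, with ada2b and hag1 overlapping. The 17 other tested aquaporins include DELTA-TIP, which met the thresholds and was left out by name. Of the 17, 13 were lower in scs1-scs2a than in Col-0, 16 in ada2b and 15 in hag1, and the rest were not called. Without the first Col-0 library 1 was higher in ada2b. TIP1;1 (AT2G36830) had 8855 and 8478 normalised counts in scs1-scs2a, 3935 and 3919 in ada2b and 6032 and 5758 in hag1, against 14373 and 14001 in Col-0, and TIP1;2 (AT3G26520) had 11158 and 10688 normalised counts in scs1-scs2a, 6131 and 6250.1 in ada2b and 12394 and 11877 in hag1, against 21529.7 and 20236 in Col-0. The relative TIP2;1 (AT3G16240), named DELTA-TIP in the reference and left out by name, had 3784 and 3608 normalised counts in scs1-scs2a, 1953 and 2225 in ada2b and 4508 and 4588 in hag1, against 10428 and 9075 in Col-0. These vacuolar channels were below Col-0 in every mutant library.

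AT2G30766, on the iron deficiency list, had 694 and 406 normalised counts in scs1-scs2a, 691 and 414 in ada2b and 125 and 178 in hag1, against 1665 and 1819 in Col-0. It overlaps AT2G30760 on the opposite strand, which had 233 and 144 normalised counts in scs1-scs2a, 214 and 143 in ada2b and 42.8 and 51 in hag1, against 529.9 and 593 in Col-0. In both genes scs1-scs2a and ada2b had nearly the same pairs of values and hag1 was the lowest. AT2G30760 was higher in ada2b than in hag1 at 1.88 ± 0.25, limma adjusted p = 0.000581, and AT2G30766 at 1.83 ± 0.29, limma adjusted p = 0.0015 (log2 difference ± SE). Of the 50-base stretches of their longest transcripts, 12.6% in AT2G30760 and 16.0% in AT2G30766 also occur in another gene. Whether strand was used in the counting is not stated, so reads of the stretches they share may count for either gene. Of 14 other tested iron deficiency genes, 1 was higher and 8 lower in scs1-scs2a than in Col-0, 1 and 3 in ada2b, and 13 were lower and 1 not called in hag1. The higher call in scs1-scs2a was lost without either of its libraries or the first Col-0 library, and there were 2 without the second Col-0 library, when 4 were lower. In ada2b the higher call was lost without its first library or the first Col-0 library, and 1 was lower without its second library or the second Col-0 library. BHLH100 (AT2G41240), a regulator of iron uptake, had 27.6 and 48.8 normalised counts in scs1-scs2a, 283 and 197 in ada2b and 6.29 and 8.83 in hag1, against 250.1 and 358 in Col-0, and bHLH39 (AT3G56980), its relative, had 41.9 and 73.7 normalised counts in scs1-scs2a, 115 and 85.5 in ada2b and 8.35 and 8.82 in hag1, against 142 and 164 in Col-0. For both, the hag1 libraries were the lowest and the ada2b libraries the highest of the mutants. The ada2b libraries overlapped those of Col-0 for BHLH100 and were below both of them for bHLH39. OPT3 (AT4G16370), an iron transporter of the phloem, had 4292 and 4006 normalised counts in scs1-scs2a, 6061 and 5287 in ada2b and 3031 and 3170.3 in hag1, against 6219 and 6534 in Col-0.

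Clock and photoperiod genes came to 4, with median L values of -1.35 in scs1-scs2a, -1.63 in ada2b and -1.63 in hag1. The sample details used here give no hour of harvest, so whether it differed between genotypes could not be checked. CCL (AT3G26740) had 9406 and 8155 normalised counts in scs1-scs2a, 5789.96 and 6434 in ada2b and 6978 and 8262 in hag1, against 23236 and 19473 in Col-0. It had the highest Col-0 mean of the set, not corrected for length, and libraries of CCL overlapped between scs1-scs2a and hag1. FKF1 (AT1G68050) had 355 and 339 normalised counts in scs1-scs2a, 293 and 288 in ada2b and 192 and 223 in hag1, against 738 and 687 in Col-0. In FKF1 hag1 was the lowest and scs1-scs2a the highest mutant, without overlap. PRR7 (AT5G02810) had 112 and 106 normalised counts in scs1-scs2a, 121 and 91.3 in ada2b and 113 and 154 in hag1, against 353 and 232 in Col-0, and its mutant libraries overlapped.

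PCC1 (AT3G22231), controlled by pathogens and the clock, had 536 and 757 normalised counts in scs1-scs2a, 34 and 70.3 in ada2b and 257 and 806 in hag1, against 2202 and 1758 in Col-0. The scs1-scs2a libraries of PCC1 lay between the hag1 libraries, and 30.8% of its 50-base stretches also occur in AT3G22235. Of 12 other tested clock genes, 2 were higher and 6 lower in scs1-scs2a than in Col-0, 4 and 5 in ada2b, and 3 and 3 in hag1. The lower count in scs1-scs2a became 3 without either of its libraries. LHY (AT1G01060), a morning repressor, had 157 and 145 normalised counts in scs1-scs2a, 236 and 267 in ada2b and 264 and 240.1 in hag1, against 51.1 and 52.3 in Col-0. RVE8 (AT3G09600), a related MYB-like clock factor, had 265 and 254 normalised counts in scs1-scs2a, 390.4 and 453 in ada2b and 268 and 300.05 in hag1, against 122 and 139.5 in Col-0. LHY and RVE8 were above Col-0 in every mutant library. PRR3 (AT5G60100), a pseudo-response regulator, had 647 and 657 normalised counts in scs1-scs2a, 623 and 631 in ada2b and 235 and 248 in hag1, against 1053 and 1008 in Col-0, the lowest in hag1.

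Regulators of transcription numbered 10, with median L values of -1.39 in scs1-scs2a, -2.48 in ada2b and -1.73 in hag1. PIF4 (AT2G43010), which drives elongation growth in shade and warmth, had 57.4 and 66.8 normalised counts in scs1-scs2a, 34 and 43.9 in ada2b and 58.7 and 91.3 in hag1, against 327 and 219 in Col-0. TCP4 (AT3G15030), which limits cell division in leaves, had 1149 and 993 normalised counts in scs1-scs2a, 712 and 592 in ada2b and 713 and 692 in hag1, against 2053 and 2248 in Col-0. SNZ (AT2G39250), an APETALA2-like repressor of flowering, had 110.4 and 80.7 normalised counts in scs1-scs2a, 39 and 43.8 in ada2b and 35.4 and 34.3 in hag1, against 309.7 and 411 in Col-0. RGL2 (AT3G03450), a DELLA repressor of gibberellin responses known from seeds, had 106 and 86.5 normalised counts in scs1-scs2a, 58.1 and 41.8 in ada2b and 55.1 and 35.2 in hag1, against 185 and 216 in Col-0. Mutant libraries stayed below both Col-0 libraries in each of the 4, with the lowest mean in ada2b for PIF4 and TCP4 and in hag1 for SNZ and RGL2. By limma, 8 of the 10 were higher in scs1-scs2a than in ada2b, 5 were lower in ada2b than in hag1, and 4 were higher in scs1-scs2a than in hag1. Shares over the 158 genes were 84.2%, 60.1% and 41.8% in that order, against 14.8%, 21.2% and 15.2% of all genes tested.

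**Figure D4:**
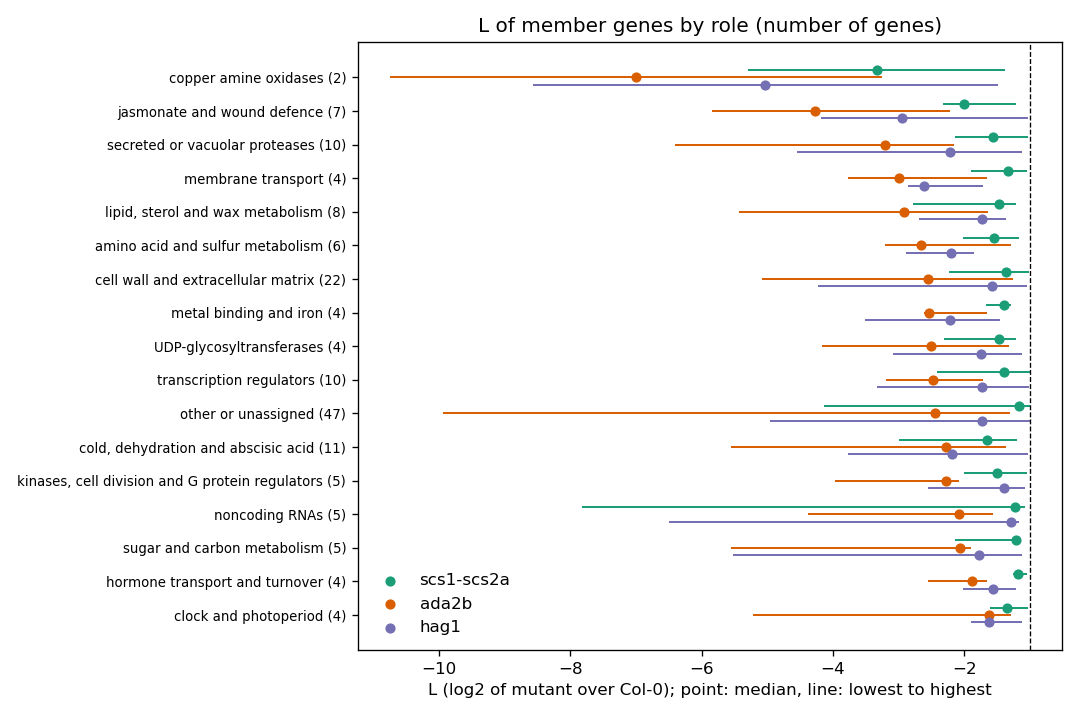
Median L (point) and the lowest and highest L (line) of the genes of each role in scs1-scs2a, ada2b and hag1, on a log2 axis with the rule's limit of -1 dashed. The ada2b median lies lowest in all roles but the clock and photoperiod genes, where it and the hag1 median are both -1.63; the number of genes per role stands in parentheses, and roles were given after the members were known.

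Smaller roles are given by their medians. The 4 genes of hormone transport and turnover had median L values of -1.18 in scs1-scs2a, -1.88 in ada2b and -1.56 in hag1, and include LAX1 (AT5G01240), an auxin influx carrier, with L values of -1.24 in scs1-scs2a, -2.55 in ada2b and -1.83 in hag1. The 6 genes of amino acid and sulfur metabolism had medians of -1.55, -2.66 and -2.20 in the same order, among them the sulfate transporter SULTR3;1 (AT3G51895) with -1.66 in scs1-scs2a, -3.20 in ada2b and -2.55 in hag1. The 4 UDP-glycosyltransferases had medians of -1.48, -2.51 and -1.75. Kinases, cell division and G protein regulators, with 5 genes, had -1.5, -2.28 and -1.40, and include the D-type cyclin CYCD1;1 (AT1G70210) with -1.78 in scs1-scs2a, -2.98 in ada2b and -1.51 in hag1. Membrane transport, with 4 genes, had -1.33, -2.99 and -2.62, and metal binding and iron, with 4 genes, -1.40, -2.54 and -2.22.

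The other 47 genes were given no role and had medians of -1.17, -2.44 and -1.73 in the same order. AT4G33720, annotated as a secreted CAP family protein, the family of pathogenesis-related protein 1, had 401 and 159.7 normalised counts in scs1-scs2a, 1 and 0.971 in ada2b and 99.4 and 24.2 in hag1, against 2011 and 1893 in Col-0. Its ada2b libraries were near 1 normalised count, where the log2 difference depends on the pseudocount, and libraries within scs1-scs2a and hag1 differed more than 2-fold. AT3G44970, a cytochrome P450, had 68.1 and 56.1 normalised counts in scs1-scs2a, 1 and 3.91 in ada2b and 14.5 and 6.83 in hag1, against 292 and 312 in Col-0. The order ada2b, hag1, scs1-scs2a was free of overlap in both genes. AT1G14250, an apyrase-like nucleoside phosphatase, had 28 and 10.3 normalised counts in scs1-scs2a, 13 and 4.82 in ada2b and 66.2 and 136 in hag1, against 339 and 366 in Col-0, and AT2G33830, a dormancy and auxin associated protein, had 619.9 and 553 normalised counts in scs1-scs2a, 398 and 483 in ada2b and 1132 and 1332 in hag1, against 2796 and 2173 in Col-0. In these last genes hag1 was the highest mutant. AT3G62550, of the adenine nucleotide alpha hydrolase family, had 1969 and 1829.6 normalised counts in scs1-scs2a, 971 and 1124 in ada2b and 976 and 1383 in hag1, against 4096 and 3745 in Col-0, and ELI3-1 (AT4G37980), of the cinnamyl alcohol dehydrogenases, had 1226 and 1019 normalised counts in scs1-scs2a, 648 and 568 in ada2b and 1094 and 1317 in hag1, against 2989.7 and 3594 in Col-0.

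Noncoding RNAs are the least certain members. AT2G01422 is listed at 0 in both scs1-scs2a libraries, at 0.00245 and 19.6 in ada2b and at 0.0156 and 2.95 in hag1, against 116 and 332 normalised counts in Col-0, so no fold is given. Its Col-0 libraries differed more than those of any other member. The lncRNA AT3G03265 lies on the opposite strand of DELTA-TIP over 445 bases, and its values of 521 and 439 (scs1-scs2a), 251 and 344 (ada2b) and 565 and 562 (hag1) normalised counts, against 1333 and 1194 (Col-0) stand beside DELTA-TIP means of 3696, 2089 and 4548 in the same mutants, against 9752 in Col-0. AT1G05523 and AT1G20070 lie on opposite strands over 1115 bases and have nearly the same values in all 8 libraries, and scpl50 with AT1G15002 and AT5G16030 with AT5G02515 are further overlapping pairs. In all, the spans of 30 of the 158 genes, introns included, overlap another gene of the table, 26 of them one whose Col-0 mean is not small beside their own (10% of it or more). Far fewer share much of their transcript. At least 20% of the 50-base stretches of the longest transcript also occur in another gene for 7 members, namely scpl50, AT1G15002, AT1G05523, AT1G20070, AT1G48100, PCC1 and AT1G50280. Without strand, reads of shared stretches cannot be assigned to one gene of an opposite-strand pair. The longest transcripts of AT3G03265 and AT5G02515 share no 50-base stretch with another gene of the table.

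The largest differences of scs1-scs2a against ada2b were 7.0 ± 0.60, limma adjusted p = 0.000181 for AT4G33720 and 4.32 ± 0.46, limma adjusted p = 0.000443 for AT3G44970 (log2 difference ± SE), besides AT1G31690 above. Against hag1, scs1-scs2a was higher for AT3G44970 at 2.51 ± 0.46, limma adjusted p = 0.00454. It was lower for AT1G14250 at -2.40 ± 0.55, limma adjusted p = 0.0121, and for AT2G33830 at -1.07 ± 0.14, limma adjusted p = 0.00106. The call for AT1G14250 is lost without the second scs1-scs2a library (adjusted p = 0.0802) or without the second hag1 library (adjusted p = 0.0784). In ada2b against hag1, the lowest was AT4G33720 at -4.66 ± 0.60, limma adjusted p = 0.000486.

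**Figure D5:**
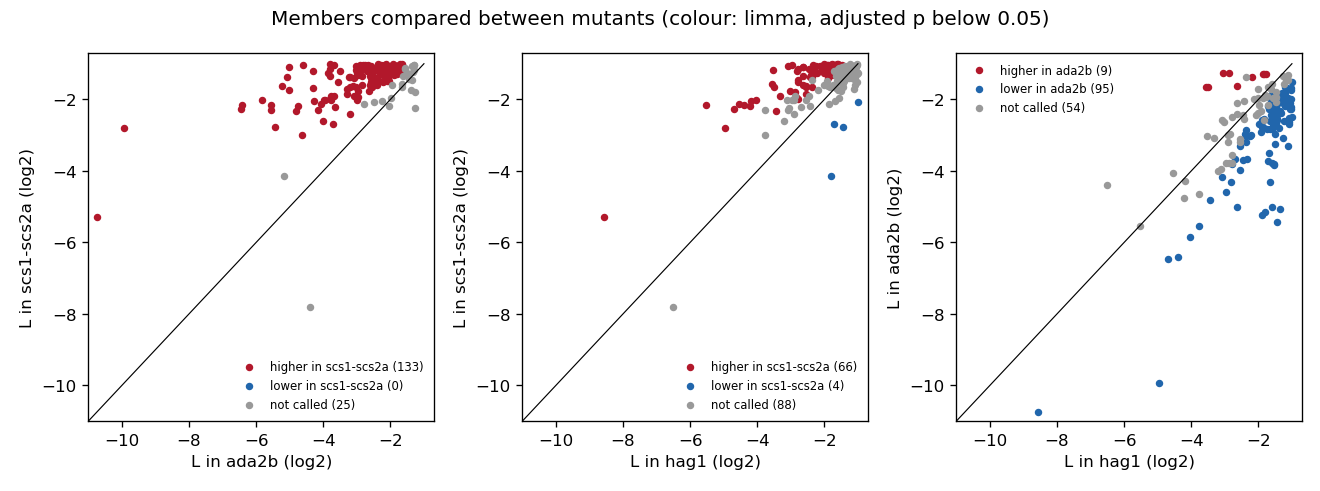
L of the 158 genes in one mutant against another on log2 axes, with the line of equal L and colours for genes called by limma (adjusted p below 0.05). Against ada2b, 133 genes are higher in scs1-scs2a and lie above the line; against hag1, 66 are higher in scs1-scs2a and 4 lower; in ada2b against hag1, 95 are lower and 9 higher.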

How the data were processed

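Each library's reads were single-end and 50 bases long, per the labels' protocols. The deposited table gives 1 normalised count signal per gene and library, not whole numbers. Per the submitters' processing notes, HISAT2 and edgeR were used with TAIR10, versions unnamed. What counted the reads, whether by strand, and which genes were filtered is not stated. Whole reads were not recovered, so no count model was run, although the plan for whole counts named one.

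On log2(value + 1), limma 3.58.1 under R 4.3.3 (trend on the mean, empirical Bayes) fitted one model of the 4 genotypes, with 4 residual and 4.42 prior degrees of freedom. The 25459 genes that reached 1 in 2 or more libraries were tested. Tests were two-sided, with Benjamini-Hochberg adjustment over all tested genes at 0.05. The fit was also run on simulated data, with the same setting of spread for every gene and few genes changed. The deposited data differ from that setting, so the run does not show how far the calls here can be trusted. In the deposited data, squared differences between libraries of a genotype were 4.58 to 6.72 times what counting gives, and no pair was merged. All 32548 identifiers matched RefSeq's TAIR10.1 annotation, from which symbols, exons, coordinates and promoter windows come; the submitters' build is named TAIR10.

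The members and the 15 gene lists were chosen with earlier results of these data known, and roles were given by hand after the members were known. Genes named were the 14 members with the highest Col-0 means, the 8 with the lowest mean L, members on a list, the 3 largest called differences each way per pair of mutants, the 3 nearest each threshold on either side, HAG1 and ADA2B, and, of each list with a member, up to 3 other genes with the smallest adjusted p. Further members named by role, and the list genes STZ and RHL41, were chosen after their values were seen. Libraries were not paired by replicate number in the main fit. Correlations of same-numbered deviations ran from -0.122 to 0.201, the highest between ada2b and hag1. Whether these genotypes share a replicate effect was not tested. Alternatives were another pseudocount, scaling, filters, thresholds, a replicate block, fits of only the 2 genotypes compared and each library left out.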

Additional observations from a re-analysis of the deposited data

How the results depend on the processing

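The number of genes meeting the rule was 160 with a pseudocount of 0.1, 164 with median-ratio scaling and 228 with a Col-0 mean of 100. It became 94 when each mutant library was set against each Col-0 library, 49 with an L of -1.5 or less, 280 with -0.8 and 99 with a Col-0 mean of 400. Leaving out 1 library gave 135 to 180. Leaving out 1 library at a time, scs1-scs2a against hag1 gave 35 to 67 higher and 1 to 6 lower members, scs1-scs2a against ada2b 98 to 122 and 0 to 1, and ada2b against hag1 7 to 9 and 79 to 94. A filter of 10 gave 7 lower in scs1-scs2a against hag1 and 1 lower against ada2b. The replicate block gave 65 higher and 5 lower in scs1-scs2a against hag1, 129 higher against ada2b, and 94 lower in ada2b against hag1, and the crossed replicate block, added after seeing the data, 8 lower in scs1-scs2a against hag1; the numbers mark no stated batch. Both blocks also called 2 other cold response genes higher in scs1-scs2a against Col-0, where there were 0. The crossed block called 1 other glucosinolate breakdown gene higher there, against 0, and 2 wax genes lower, against 1. The 226 other list genes tested include the genes left out by name, of which 8 met the thresholds, so the rule set their direction. Of the 226, 19 were higher and 111 lower in scs1-scs2a against Col-0, and leaving out 1 library gave 10 to 25 higher and 65 to 114 lower. The lowest lower count came without the second scs1-scs2a library. The same ranges in ada2b were 23 to 34 and 133 to 145, and in hag1 30 to 33 and 116 to 129. In the 250 bases before the start alone, TATA box windows made up 50% of members, against 45.2% of genes with a Col-0 mean of at least 200. Of the differences between mutants named for single genes, 150 values kept their direction and call and 6 lost the call, and none changed direction. Direction was checked only for these. Counts were compared by size alone, and single-gene differences from Col-0 were not in this check. The cause of these changes was not tested. Median-ratio scaling moved the median of all genes by at most 0.05 on the log2 scale. Without whole counts, no counting interval is given for single values.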
